A study of Homo sapiens with 6 samples.

Results

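This account covers 10 genes for matricellular proteins, TGFBI, THBS1, THBS2, THBS3, POSTN, SPARC, TNC, SPP1, COMP and ECM1, in LX-2 cells given IGFBP-7 protein. They were chosen by name with earlier results of these data known, and all 10 symbols were found among the 16569 genes of the deposited table. LX-2 is an immortalised line of human hepatic stellate cells, the liver pericytes that become matrix-producing myofibroblasts after injury, and IGFBP-7, insulin-like growth factor binding protein 7, is secreted by many cell types. All cells carried the wild type genotype label, were grown with 2% fetal bovine serum and then kept for 18 h without it. One group of 3 libraries then received IGFBP-7 at 100 ng/mL and the other group of 3 phosphate-buffered saline (PBS), each for 24 h. As a model the system is 1 cell line in culture, and the labels do not name separate cultures behind the 3 libraries, so the p-values reflect only how these libraries vary, and that variation may be technical.

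Matricellular proteins are secreted into the extracellular matrix but are not among its main structural fibres. They bind integrins, proteoglycans, growth factors and collagens, and so tune how cells adhere and respond to the matrix. Many are low in healthy adult tissue and are made in quantity by fibroblasts and stellate cells during wound repair and fibrosis. Thrombospondin-1 can release TGF-beta from its latent complex, and TGFBI takes its name from its induction by TGF-beta.

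With IGFBP-7, TGFBI, POSTN, THBS1, SPARC, TNC and THBS2 were higher, SPP1 and ECM1 were lower, and THBS3 did not pass the test. COMP went from 0 in every PBS library to a few fragments in every IGFBP-7 library and was too low to be tested. Levels are the authors' normalized counts. Changes are IGFBP-7 minus PBS on the log2(normalized count + 1) scale with the standard error (SE) of limma-trend, and adjusted p is Benjamini-Hochberg over all genes tested. A gene was tested when its mean over the 6 libraries was at least 10, and it was called when its adjusted p was under 0.05. Of the 9 genes tested here, 6 were called higher and 2 lower, where 31.3% of all 11872 tested genes were called higher and 29.2% lower (60.6% in either direction). The 8 called genes were also those whose groups did not overlap, 6 upward and 2 downward, against 32.9% and 30.6% of all tested genes (63.5% in either direction). Rises of at least 2-fold were called in 5 of the 9, against 5.05% of all tested genes, and falls of at least 2-fold in 0 of the 9, against 6.33%. The median log2 change was 1.07 for the 9 and 0.02 for all tested genes, where 3721 genes were called higher and 3471 lower. Because the 10 genes were chosen with earlier results of these data known, these contrasts with all tested genes are a description only. Scaling each library to its total in the table put the median of all tested genes at -0.12, with 2435 genes higher and 4176 lower. That scaling turned the sign of THBS3 alone among the 9. POSTN reached the minimum through its IGFBP-7 libraries alone, so it had to be higher there to be counted, and COMP did not reach it. POSTN is among the 6 called higher and the 5 with rises of at least 2-fold. With a minimum of 100, which POSTN did not reach, 5 of 8 genes were called higher and 2 lower. The median log2 change of those 8 was 0.73. Of all 8850 genes tested at that minimum, 3449 were called higher and 3007 lower.

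**Figure D1:**
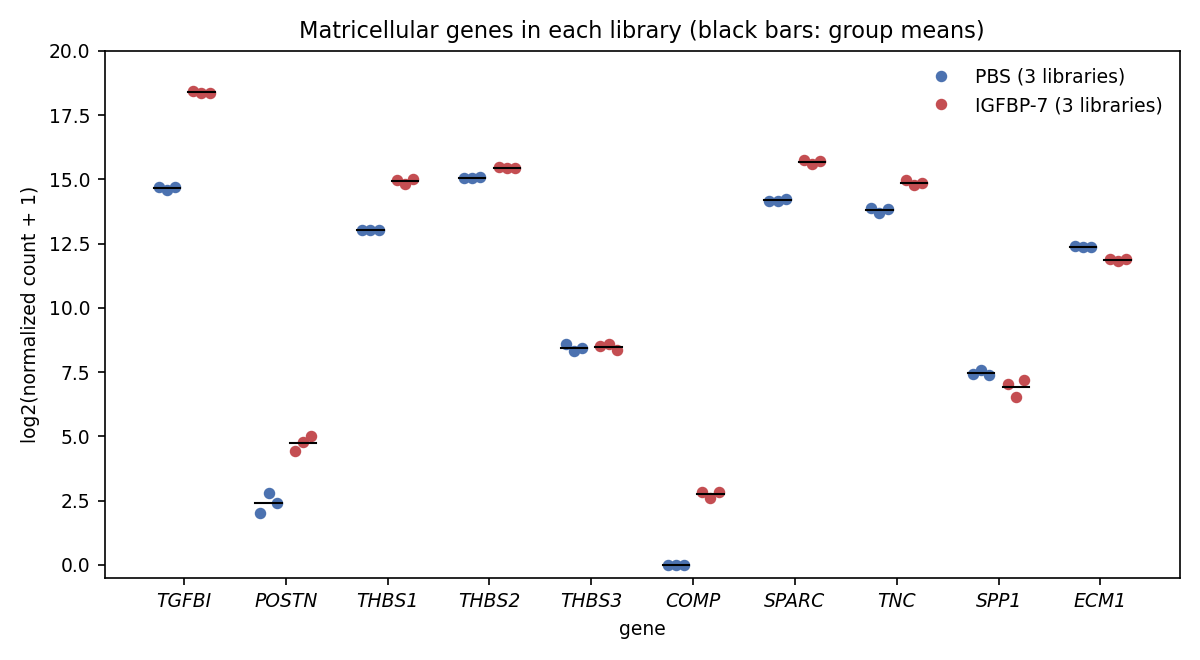
Level of the 10 matricellular genes in each library as log2(normalized count + 1), with PBS libraries in blue, IGFBP-7 libraries in red and group means as black bars. The 3 libraries of a group lie close together, TGFBI shows the widest gap between groups, and the THBS3 libraries of the groups overlap.

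Sequencing depth, as reads recovered from the table, was 40599380 to 43537923 per PBS library and 45242993 to 55479940 per IGFBP-7 library, and 2 reads make 1 fragment. Across the tested genes, which are no replicates, the correlation was 0.987 to 0.989 for libraries of the same group and 0.952 to 0.954 for libraries of different groups. Of the stellate and mesenchymal markers, 11 of 13 were in the table and their levels summed to between 70926 and 75368 (PBS) and between 223294 and 243127 (IGFBP-7), most of it COL1A1. Of the 10 of these markers that were tested, 6 were called higher and 2 lower, so the list did not go one way. Among all tested genes 31.3% were called higher and 29.2% lower. PDGFRB, the platelet-derived growth factor receptor of stellate cells, was at 3055 and 8224, and DES, the desmin gene, was at 0 in all PBS libraries and averaged 1.36 with IGFBP-7, from 1 library. THY1, a surface marker of fibroblasts, fell from 6908 to 5714 and LUM from 354 to 109, while RGS5, a pericyte marker, was at 195 and 152 and was not called (limma adjusted p = 0.0906). The hepatocyte marker ALB was at 0.712 and 1.81, the leukocyte marker PTPRC at 5.59 and 4.67, and the epithelial marker CDH1 at 0 and 0.681. The summed level of 5 hepatocyte markers ranged from 236 to 284 in PBS and from 217 to 255 with IGFBP-7. Nearly all of it was SERPINA1, at 252 and 227 and not called. For 7 endothelial markers the sum ranged from 324 to 359 and from 435 to 504, but its members did not all rise. PECAM1 (61.5 to 113) and TEK (138 to 224) were called higher, while KDR, VWF and STAB2 (28.0 to 15.5) were not called. CDH5 went from 9.72 to 0 and was not tested. The sum ranged from 3280.0 to 3372 and from 1736 to 2018 for 7 leukocyte markers, most of it CD68. Of these, CD68 and CD14 fell, CD14 from 399 to 86.0, while CSF1R, the receptor for macrophage colony-stimulating factor, rose from 56.5 to 293. For 7 epithelial and cholangiocyte markers it ranged from 27497 to 28318 and from 37692 to 43785, nearly all of it the keratin genes KRT8 and KRT18. The part of these shifts in the results below was not tested. In bulk RNA, more cells expressing a gene and more RNA per cell cannot be told apart.

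TGFBI encodes a secreted protein with fasciclin domains that binds collagens and integrins. It stood at 26421, 24893 and 26445 normalized counts in the PBS libraries and at 355689.8, 331225 and 339948 in the IGFBP-7 libraries. The groups were far apart and each was tight. TGFBI had a log2 change of 3.72 ± 0.04 (limma adjusted p = 7.71e-55), a 13.2-fold rise with a 95% interval of 12.6 to 13.9. By count, with no correction for length, it went from the 68th place of the table to the 3rd. The rise in TGFBI was the 39th largest of the 11872 tested genes. Quantile normalization, which forces the same distribution on every library, gave a smaller log2 change of 2.90 for TGFBI, with the call kept.

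POSTN encodes periostin, a fasciclin-domain relative of the TGFBI protein that is made by activated fibroblasts. It was near the detection limit, at 3.09, 5.89 and 4.27 normalized counts in PBS and at 20.4, 26.3 and 31.0 with IGFBP-7. The groups did not overlap, but these values stand for 13 fragments in all PBS libraries and 81 in all IGFBP-7 libraries. The ratio of fragments was 5.83, with a 95% counting interval of 3.23 to 11.4 (exact Clopper-Pearson), which covers counting error only. On the log2 scale POSTN rose by 2.33 ± 0.60 (limma adjusted p = 0.000782). POSTN reached the minimum for testing through its IGFBP-7 libraries alone, so it had to be higher there to be tested in this fit. With a pseudocount of 5 in place of 1 the log2 change was 1.71, since the pseudocount weighs on low genes. Per POSTN count there were 8553, 4225 and 6189.8 TGFBI counts in PBS and 17397, 12617 and 10967 with IGFBP-7. These ratios rest on 3, 6 and 4 POSTN fragments in PBS and are given as a description. Their log2 difference of 1.14 moved between 0.88 and 1.39 when 1 library was left out.

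The sequences upstream of these paralogs are shown because the genes rose from very different levels. Each is the 250 bases before the RefSeq start, 5′ to 3′ on the gene's strand (RefSeq, GRCh38.p14), at chr5:136028738-136028987 (+ strand) for TGFBI and chr13:37598769-37599018 (- strand) for POSTN. Capitals mark matches on either strand to CAGAC (bound by SMAD proteins, the messengers of TGF-beta), GTCTAGAC (the SMAD palindrome), TGANTCA (AP-1), CATTCC (TEAD), GGGCGG (SP1) and TATAAA (the TATA box), here and in the sequences that follow.
TGFBI: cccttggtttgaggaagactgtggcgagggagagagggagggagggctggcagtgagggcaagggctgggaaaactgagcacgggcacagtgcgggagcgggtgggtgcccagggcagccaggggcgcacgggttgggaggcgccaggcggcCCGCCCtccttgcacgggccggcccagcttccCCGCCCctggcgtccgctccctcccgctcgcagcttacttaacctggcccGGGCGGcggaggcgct
POSTN: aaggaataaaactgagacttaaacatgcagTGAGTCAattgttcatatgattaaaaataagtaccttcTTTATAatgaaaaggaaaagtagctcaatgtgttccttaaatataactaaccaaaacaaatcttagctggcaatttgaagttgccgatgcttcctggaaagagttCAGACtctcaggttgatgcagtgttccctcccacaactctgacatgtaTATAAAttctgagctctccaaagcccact
The TGFBI window was 72.8% G or C and held 3 GGGCGG matches and none of the other motifs. The POSTN window was 36.4% G or C and held 1 CAGAC match, 1 TGANTCA match and 2 TATAAA matches, the nearer of which lies 29 to 24 bases before the start.

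The thrombospondins are calcium-binding glycoproteins that assemble as trimers (THBS1 and THBS2) or pentamers (THBS3 and COMP). THBS1, which encodes the TGF-beta-activating thrombospondin-1, was at 8389, 8339 and 8367 normalized counts in PBS and at 32315, 29033 and 32627 with IGFBP-7. The PBS libraries were nearly equal, and the groups were far apart. The log2 change of THBS1 was 1.90 ± 0.04 (limma adjusted p = 8.32e-38), a 3.74-fold rise with a 95% interval of 3.51 to 3.98.

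THBS2 encodes thrombospondin-2, an inhibitor of angiogenesis that also affects collagen fibril assembly. It was at 33688, 34103 and 35284 in PBS and at 45786, 44512 and 44459.9 with IGFBP-7. The groups did not overlap, and the log2 change was 0.39 ± 0.04 (limma adjusted p = 1.29e-12), a 1.31-fold rise with a 95% interval of 1.24 to 1.38. With quantile normalization the change of THBS2 was 0.07 and the call was lost (limma adjusted p = 0.0713). Library total scaling gave 0.25 and kept the call.

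Within each library, THBS1 counts per THBS2 count were 0.249, 0.245 and 0.237 in PBS and 0.706, 0.652 and 0.734 with IGFBP-7. This ratio does not depend on the scaling between libraries, and it was 2.86-fold higher with IGFBP-7, a difference of 1.52 on the log2 scale with no overlap between groups (exact permutation test, two-sided, p = 0.1, the smallest that 3 against 3 libraries allow).

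THBS3, whose product has been studied mainly in the skeleton and heart, was at 382, 318 and 344 in PBS and at 364, 384 and 325 with IGFBP-7. The libraries of the groups overlapped. The change of THBS3 on the log2 scale was 0.04 ± 0.12 (95% interval -0.20 to 0.29, limma adjusted p = 0.791). The value was -0.10 after library total scaling. Counts of THBS1 per THBS3 count were 22.0, 26.2 and 24.3 in PBS and 88.8, 75.5 and 100.2 with IGFBP-7, a difference of 1.86 on the log2 scale (exact permutation p = 0.1, the smallest possible). The within-library tests numbered 5, with that of TGFBI to POSTN included, and all have a Benjamini-Hochberg adjusted exact p of 0.1.

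COMP encodes cartilage oligomeric matrix protein, the fifth thrombospondin, which binds fibrillar collagens. It was at 0 in the 3 PBS libraries and at 6.13, 5.08 and 6.20 normalized counts with IGFBP-7, or 6 fragments in each of the 3. Taking 3 fragments over the whole PBS group as the floor, or 1.03 normalized counts, the observed level with IGFBP-7 was 5.61 times that floor. This value leaves out the counting error of the 18 IGFBP-7 fragments, so it is not a lower limit of the change. With every gene of the table entered in the test, COMP was called higher (limma adjusted p = 0.00142), and no fold is taken from that fit.

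The windows upstream of THBS1, at chr15:39580829-39581078 (+ strand), and of THBS2, at chr6:169253847-169254096 (- strand), are shown because the ratio of this pair had separate ranges in the groups.
THBS1: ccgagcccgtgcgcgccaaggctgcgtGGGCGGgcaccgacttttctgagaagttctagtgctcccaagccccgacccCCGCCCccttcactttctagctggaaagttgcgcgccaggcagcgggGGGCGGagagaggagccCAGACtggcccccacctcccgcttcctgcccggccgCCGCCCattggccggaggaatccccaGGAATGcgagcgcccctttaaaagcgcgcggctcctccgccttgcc
THBS2: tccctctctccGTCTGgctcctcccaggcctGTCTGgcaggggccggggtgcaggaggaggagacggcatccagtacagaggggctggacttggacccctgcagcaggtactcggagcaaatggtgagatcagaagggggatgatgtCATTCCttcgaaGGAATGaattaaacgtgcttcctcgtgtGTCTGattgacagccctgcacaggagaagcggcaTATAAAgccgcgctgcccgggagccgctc
THBS1 had 4 GGGCGG matches, 1 CAGAC and 1 CATTCC match and no TATAAA, while THBS2 had 3 CAGAC matches, 2 CATTCC matches on opposite strands, 1 TATAAA and no GGGCGG.

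Several of these genes share their locus with genes on the opposite strand, and the authors' strand setting was not given in the sources used here, so reads from shared bases cannot be told apart. THBS1-AS1 went from 508 ± 52.0 to 1755 ± 191 (SD, n = 3), or 6.07% and 5.59% of the THBS1 counts. FSIP1, a coding gene whose exons overlap those of THBS1 in GENCODE 29, had a log2 change of 1.76 ± 0.07, against 1.90 for THBS1. THBS1-IT1, a transcript of the same strand from an intron, named after its values were seen, as were the overlapping genes without the AS ending, went from 8.65 ± 5.63 to 43.2 ± 6.13 and reached the minimum for testing through its IGFBP-7 libraries alone. THBS2-AS1 was abundant, at 11294 ± 473 in PBS and 16884 ± 286 with IGFBP-7, or 32.9% and 37.6% of the THBS2 counts, although its exons in GENCODE 29 do not overlap those of THBS2. Its log2 change was 0.58 ± 0.04, against 0.39 for THBS2, and the difference was not tested. THBS3-AS1 was at 206 ± 38.8 and 199 ± 16.5, and like THBS3 it was not called (limma adjusted p = 0.862). MTX1, a coding gene opposite THBS3 whose exons overlap those of THBS3 in GENCODE 29, was not found in the table. Reads that THBS3 may share with MTX1 could therefore not be checked. CLMAT3, opposite SPARC, had a log2 change of 1.44 ± 0.09, and DELEC1, opposite TNC, one of 0.95 ± 0.10. THBS1-AS1, FSIP1, THBS2-AS1, CLMAT3 and DELEC1 were called higher, as their partners were.

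SPARC encodes osteonectin, a collagen- and calcium-binding glycoprotein needed for normal collagen fibril formation. It was at 18387, 18458 and 19433 normalized counts in PBS and at 55125, 49959.9 and 53283 with IGFBP-7. The lowest IGFBP-7 library was well above the highest PBS library. SPARC had a log2 change of 1.49 ± 0.04 (limma adjusted p = 8.07e-35), a 2.81-fold rise with a 95% interval of 2.66 to 2.98.

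TNC encodes tenascin-C, a large glycoprotein that appears in wounds and tumour stroma. It was at 15047, 13243 and 14785 in PBS and at 32517, 28364 and 29302 with IGFBP-7. The groups were separate, and replicate 1 was the highest library in each. TNC had a log2 change of 1.07 ± 0.05 (limma adjusted p = 6.95e-26), a 2.09-fold rise with a 95% interval of 1.96 to 2.23.

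SPP1 encodes osteopontin, a phosphorylated ligand of integrins and CD44 linked to liver fibrosis. It was at 169, 191 and 167 in PBS and at 131, 91.5 and 147 with IGFBP-7. The groups did not overlap, but the spread of the IGFBP-7 libraries (SD 28.5 at a mean of 123) was wide beside the gap. The log2 change was -0.53 ± 0.18 (limma adjusted p = 0.0111). The SPP1 call was lost without PBS replicate 2 (limma adjusted p = 0.0547) and without IGFBP-7 replicate 2 (limma adjusted p = 0.134), where the log2 change was -0.47 and -0.33. Its adjusted p ranged from 0.00208 to 0.134 over all fits.

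ECM1 encodes extracellular matrix protein 1, a secreted glycoprotein described in liver as a restraint on the activation of latent TGF-beta. It was at 5396, 5252 and 5240.1 in PBS and at 3809.9, 3578 and 3824 with IGFBP-7. All IGFBP-7 libraries were below all PBS libraries, with little spread in either group. The log2 change was -0.50 ± 0.05 (limma adjusted p = 1.53e-11), which brought ECM1 to 0.705 of its PBS level with a 95% interval of 0.655 to 0.760.

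The windows upstream of SPARC, at chr5:151686916-151687165 (- strand), and of ECM1, at chr1:150507859-150508108 (+ strand), are shown as those of a gene that rose and a gene that fell.
SPARC: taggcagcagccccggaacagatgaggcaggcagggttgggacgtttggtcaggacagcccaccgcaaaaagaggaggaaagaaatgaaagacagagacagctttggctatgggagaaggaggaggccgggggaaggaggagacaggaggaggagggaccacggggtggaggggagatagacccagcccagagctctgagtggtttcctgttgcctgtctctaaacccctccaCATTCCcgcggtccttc
ECM1: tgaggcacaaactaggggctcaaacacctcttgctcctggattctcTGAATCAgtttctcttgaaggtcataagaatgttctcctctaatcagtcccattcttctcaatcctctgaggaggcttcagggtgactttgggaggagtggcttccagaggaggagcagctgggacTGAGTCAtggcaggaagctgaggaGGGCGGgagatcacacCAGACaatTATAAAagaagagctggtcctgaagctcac
SPARC had 1 CATTCC match and none of the other motifs. ECM1 had 2 TGANTCA matches, 1 CAGAC, 1 GGGCGG and 1 TATAAA, the last at 30 to 25 bases before the start.

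Over the 10 genes, whose 11 windows include 2 for THBS3, CAGAC was found upstream of 7 genes, and 38% of the 35116 windows of the same length in the table held it. The 7 were THBS1, THBS2, POSTN and TNC, which were called higher, SPP1 and ECM1, which were called lower, and COMP, which was not tested. It was not found upstream of TGFBI, SPARC or THBS3. GTCTAGAC was found upstream of 0 of the 10 genes and in 0.182% of all windows. TGANTCA was found for POSTN and ECM1 (6.57% of all windows), CATTCC for THBS1, THBS2, SPARC and COMP (11.9%), GGGCGG for 6 genes (42.6%) and TATAAA for THBS2, POSTN and ECM1 (10.7%). No match overlapped another. A match is a run of letters and not a measured binding site.

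**Figure D2:**
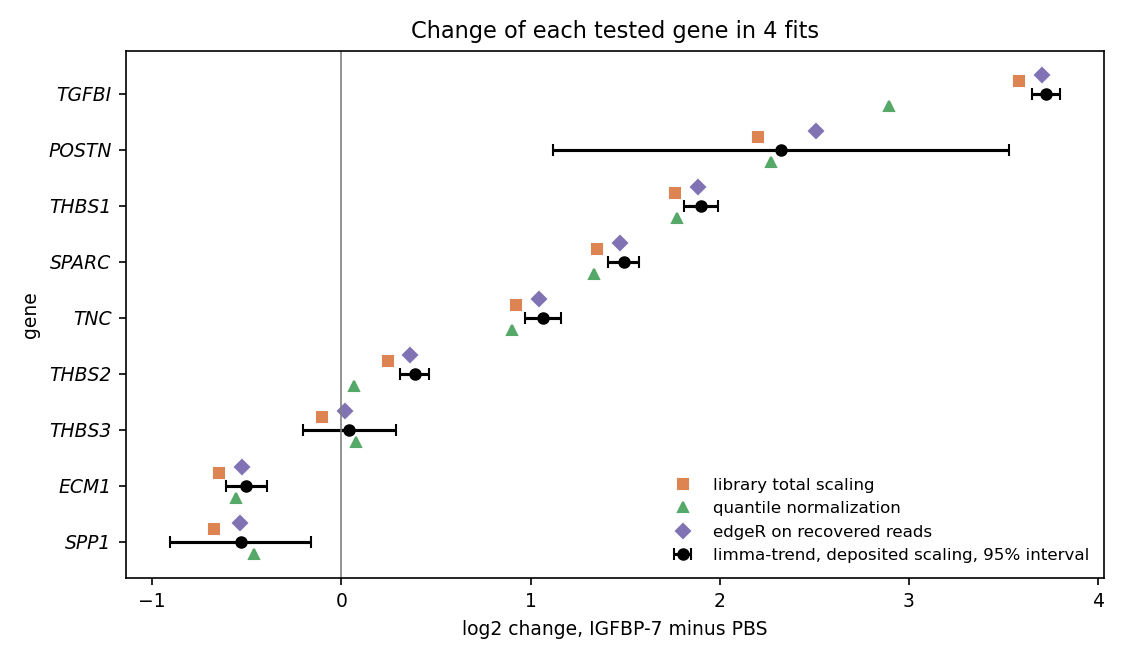
Log2 change (IGFBP-7 minus PBS) of the 9 tested genes, with the 95% interval of limma-trend as bars and the values under library total scaling, quantile normalization and edgeR as coloured symbols. TGFBI lies at 3.72 and falls to 2.90 with quantile normalization, THBS2 falls from 0.39 to 0.07, and the THBS3 interval spans 0.

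Levels of different genes can be compared only per length, so normalized counts were divided by the exonic length of each gene in GENCODE 29. That length joins the exons of all transcripts of a gene, 7810 bases for TGFBI, and can exceed that of the transcript expressed. It may also differ from the authors' annotation, and other lengths could change the order of genes within a group. In PBS the order of normalized counts per kb was THBS2 (5358 ± 129), SPARC (3883 ± 121), TGFBI (3319 ± 114), ECM1 (1576 ± 25.8), TNC (1490.0 ± 101), THBS1 (913 ± 2.74), SPP1 (75.5 ± 5.68), THBS3 (75.3 ± 6.95), POSTN (0.809 ± 0.258) and COMP (0), each with its SD over 3 libraries. The libraries of neighbours overlapped for ECM1 and TNC and for SPP1 and THBS3, and for none of the other neighbours. With IGFBP-7 the order became TGFBI (43827 ± 1588), SPARC (10927 ± 542), THBS2 (7006 ± 117), THBS1 (3421 ± 217), TNC (3120 ± 226), ECM1 (1112 ± 41.1), THBS3 (77.4 ± 6.48), SPP1 (53.0 ± 12.3), POSTN (4.74 ± 0.967) and COMP (1.87 ± 0.202). Here THBS1 and TNC overlapped and the other neighbours did not. With these lengths, TGFBI moved from the 3rd place to the 1st. THBS1 moved from the 6th to the 4th, and ECM1 from the 4th to the 6th.

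The 10 genes together held 0.507%, 0.490% and 0.508% of the normalized counts of the table in the PBS libraries and 2.18%, 2.07% and 2.16% in the IGFBP-7 libraries. Some genes, among them VIM, LGALS1, COL6A1, COL6A2 and CTSB, were not found in the table. Shares, places and library totals are therefore those of the genes in the table and not of all RNA. The groups did not overlap, and the mean share was 4.26-fold higher with IGFBP-7 (exact permutation p = 0.1, the smallest possible). TGFBI alone made up 0.121% of the counts in PBS and 1.45% with IGFBP-7. Without TGFBI the shares were 0.383%, 0.374% and 0.386% in PBS and 0.705%, 0.664% and 0.702% with IGFBP-7, a 1.81-fold difference (exact permutation p = 0.1, the smallest possible).

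**Figure D3:**
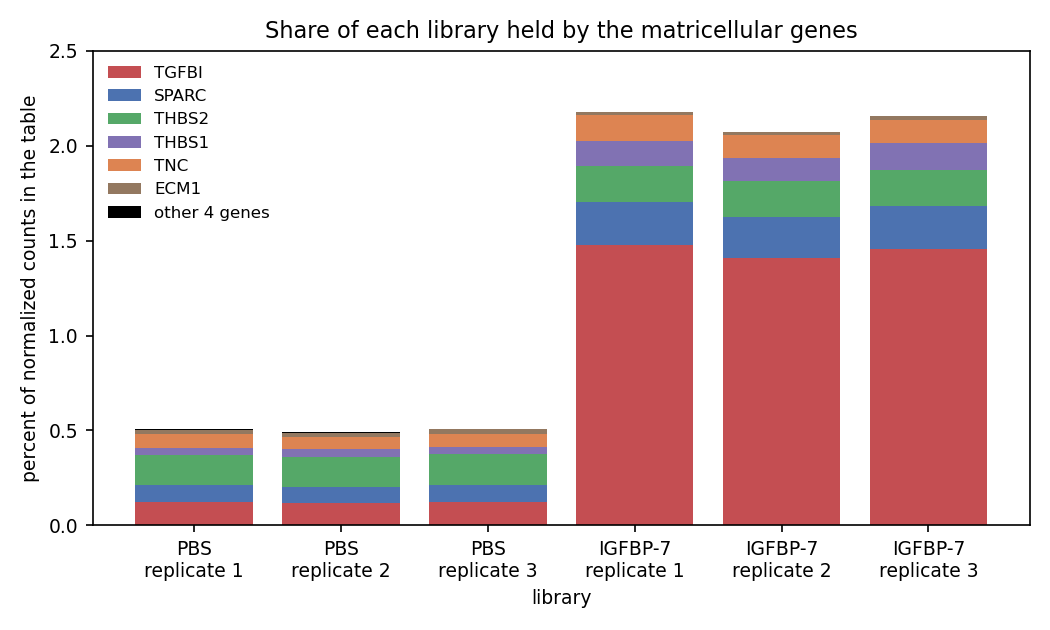
Percent of each library's normalized counts in the table held by the matricellular genes, stacked by gene, for the 6 libraries. The stacks reach 0.490% to 0.508% in PBS and 2.07% to 2.18% with IGFBP-7, and the TGFBI segment grows from a mean of 0.121% to 1.45%.

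Other members of the matricellular families were also measured. This list and those below were likewise chosen with earlier results of these data known. Of 30 such genes listed, 13 were tested, and 4 were called higher and 6 lower. Among all tested genes 31.3% were higher and 29.2% lower. With only 13 genes, the rises were near that background and the falls above it. The median log2 change of the 13 was -0.20, and it was -0.01 over the 23 listed genes in the table without the filter. SPOCK1, which encodes the proteoglycan testican-1 of the SPARC family, rose from 10735 ± 508 to 38672 ± 2067, and FBLN5, the fibulin-5 gene of elastic fibres, from 94.4 ± 11.1 to 381 ± 25.5. EFEMP1, another fibulin gene, had a log2 change of 0.26 ± 0.07. The fourth was CCN2, named after its values were seen, which encodes connective tissue growth factor and went from 3276 to 4053 with overlapping groups. Library total scaling left 2 of the 13 called higher. In the same CCN family, CCN3 fell from 1392 ± 67.0 to 301 ± 62.1 and CCN5 had a log2 change of -2.35 ± 0.47. CCN5, at 44.4 and 8.21, reached the minimum for testing through its PBS libraries alone. TNXB, the tenascin-X gene, fell from 423 ± 26.2 to 185 ± 8.72, opposite in direction to TNC. THBS4, the remaining thrombospondin gene, also named after its values were seen, averaged 180.1 (PBS) and 157 (IGFBP-7) and was not called (limma adjusted p = 0.298).

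Of 22 tested receptors of these proteins, 12 were called higher and 8 lower (31.3% and 29.2% of all tested genes), with a median log2 change of 0.32. ITGA2, which encodes a collagen-binding integrin subunit, rose from 3833 ± 292 to 8968 ± 423, and STAB1, a scavenger receptor gene for SPARC, from 240.1 ± 31.8 to 517 ± 36.9. ITGB6, which encodes the beta subunit of an integrin that binds tenascin-C and latent TGF-beta, went from 4.82 ± 3.17 to 62.2 ± 3.08, and it reached the minimum for testing through its IGFBP-7 libraries alone. The laminin receptor subunit gene ITGA6 fell from 4742 ± 199 to 2735 ± 82.9. ANXA2, which encodes a tenascin-C-binding annexin, fell from 98676 ± 2575 to 57910 ± 3510, and ITGB8, another latent TGF-beta receptor gene, fell from 277 ± 37.1 to 121 ± 44.9.

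Among 19 tested proteases and processing enzymes, 9 were called higher and 8 lower, against 31.3% and 29.2% of all tested genes. MMP7, the matrilysin gene whose product cleaves osteopontin, rose from 37.5 ± 9.80 to 715 ± 84.3. MMP2, a gelatinase gene, rose from 8409 ± 288 to 21318 ± 500, and BMP1, whose product cleaves procollagens, from 4784 ± 82.6 to 10248 ± 363. TLL1, a relative of BMP1, fell from 899.6 ± 64.7 to 201 ± 46.0. The stromelysin gene MMP3 fell from 134 ± 31.6 to 24.8 ± 10.8, and the collagenase gene MMP1 had a log2 change of -2.12 ± 0.05. The median log2 change of the list was -0.14, and it turned to 0.53 with a filter at a mean of 100, which left 17 genes.

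Matrix partners, the collagens, proteoglycans and fibronectin that these proteins bind, were called higher in 14 of 19 cases and lower in 4 (all tested genes: 31.3% and 29.2%), with a median log2 change of 0.61. The largest rises in this list were in COL5A1 (log2 change 2.58 ± 0.04), COL6A3 (2.56 ± 0.05) and FN1 (2.40 ± 0.04). COL12A1, which encodes a fibril-associated collagen, fell from 56860 ± 2636 to 17305 ± 1249, MATN2, a matrilin gene, from 4612 ± 126 to 1970 ± 133, and LUM, the lumican gene, from 354 ± 58.5 to 109 ± 9.84. In the TGF-beta list, 12 of 15 tested genes were called higher and 3 lower, beside 31.3% and 29.2% of all tested genes, with a median of 1.14. Of the 19 genes listed there, TGFBR1, SMAD2, SMAD4 and LTBP3 were not found in the table. PMEPA1 and SMAD7, which encode feedback inhibitors of the pathway, had the largest rises of the list, with log2 changes of 6.60 ± 0.08 and 3.32 ± 0.08. LTBP2, of the latent TGF-beta binding protein family, rose from 260.3 ± 46.7 to 2065 ± 144. TGFBR3 (-1.89 ± 0.11) and TGFBR2 (-0.42 ± 0.05), which encode receptors, and SMAD3 (-1.17 ± 0.05), which encodes a messenger of the pathway, fell.

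**Figure D4:**
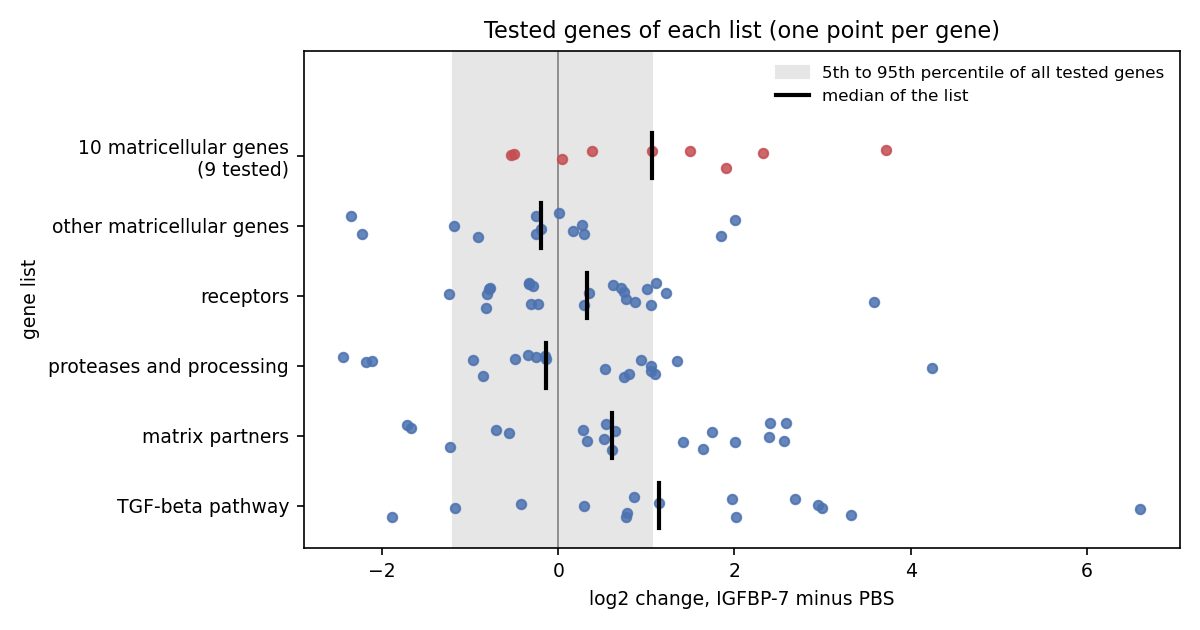
Log2 change (IGFBP-7 minus PBS) of each tested gene of the matricellular set (red) and of 5 related lists (blue), with medians as black bars and the range from the 5th to the 95th percentile of all tested genes, -1.19 to 1.07, in grey. TGFBI, POSTN, THBS1 and SPARC lie above the grey range, and the other matricellular genes lie on both sides of 0.

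The genes whose profile over the 6 libraries was nearest to that of TGFBI, by Euclidean distance of log2(normalized count + 1) after subtracting the PBS mean, were WNT9A (distance 0.355), SNAI1 (0.423), DSP (0.435), LRRC15 (0.610) and TCIM (0.687). WNT9A encodes a Wnt ligand, SNAI1 the repressor Snail, DSP desmoplakin and LRRC15 a membrane protein of activated fibroblasts. Their log2 changes were 3.55, 3.93, 3.94, 3.45 and 3.57, against 3.72 for TGFBI, from PBS levels of 12.4 to 348 normalized counts. Log2 changes near that of TGFBI follow from the choice of these genes by this distance and are no separate result. SPP1 (-0.53 ± 0.18) and ECM1 (-0.50 ± 0.05) fell by sizes that their errors do not separate, and ECM1 was the larger fall with quantile normalization and without replicate 2 of either group. The genes nearest to SPP1, which ranked first in the fit reported here, were SYCP2L (0.222), CTSO (0.260), GRIK5 (0.271), C8orf44-SGK3 (0.276) and NYAP1 (0.300). Of these SYCP2L was not called (limma adjusted p = 0.185), and C8orf44-SGK3 is a readthrough gene whose reads can be shared with SGK3.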

How the data were processed

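RNA sequencing of LX-2 cells gave 6 libraries, 3 per group, assigned by the treatment label. Per the file headers the deposited values are normalized counts, a signal obtained by the authors. STAR, Subread, featureCounts and DESeq2 are named, per the submitters' processing notes. Build, annotation, strand setting: not given in the sources used here. Within a library 100% of values were whole multiples of 1 step within 0.01, so reads were recovered, and 99.6% of nonzero counts were even. Pairs of libraries in a group differed by more than sampling noise (chi-square per degree of freedom 5.13 to 6.99). Unused sample columns numbered 0.

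log2(normalized count + 1) was fitted with limma-trend 3.58.1 (R 4.3.3), two-sided, without covariates, for genes with a mean of at least 10. Alternatives were pseudocounts of 0.5 and 5, no filter or a minimum of 100, library total scaling, quantile normalization, the replicate number as a block, edgeR 4.0.16 and DESeq2 1.42.0 on recovered reads, and leaving out each library. The fits were also run on simulated counts with far fewer changed genes than were called here. That run does not show how the fits behave when so many genes change. Single values were tested with exact permutation (scipy 1.17.1). The 10 genes and the lists were chosen with earlier results of these data known. Besides the 10, the text names their antisense genes, up to 3 rises and 3 falls per list with adjusted p under 0.05 and no overlap between groups, and the 5 coding genes nearest in profile to the largest rise and fall. Protein sequences were not used here.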

Additional observations from a re-analysis of the deposited data

How the results depend on the processing

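TGFBI, THBS1, SPARC, TNC and ECM1 kept their direction and their call in all 15 alternatives, and POSTN in the 14 that tested it. Except in the fit without a filter, POSTN entered these 14 through its IGFBP-7 libraries alone. Log2 changes ranged from 2.90 to 3.75 for TGFBI, 1.76 to 1.96 for THBS1, 1.34 to 1.53 for SPARC, 0.90 to 1.11 for TNC, -0.64 to -0.47 for ECM1 and 1.71 to 2.53 for POSTN. THBS2 lost its call with quantile normalization alone. The count of the 10 genes called lower was 1 to 2 when 1 library was left out, as SPP1 lost its call without PBS replicate 2 or IGFBP-7 replicate 2. Library total scaling shifted the median over all genes from 0.02 to -0.12 and gave 2435 genes higher and 4176 lower, against 3721 and 3471. With that scaling 2 of the other matricellular genes were called higher in place of 4, and THBS3 was at -0.10. Leaving out 1 library moved THBS3 between -0.021 and 0.11 and THBS3-AS1 between -0.20 and 0.056, and quantile normalization put THBS3-AS1 at 0.014. The median of the protease list turned to 0.53 with a filter at a mean of 100. Except where the construction of the alternative shows it, the cause was not tested. edgeR called 7103 genes and DESeq2 7108 on recovered reads, against 7192. Reads rather than fragments were their input, so a fragment counted as 2, which understates counting noise in low genes such as POSTN.

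Same-numbered libraries did not deviate together (correlations of -0.049 to 0.012), so the numbers were not taken as pairs. The replicate block gave 7177 called genes, 6 of the 9 tested genes higher and 2 lower. Over same-numbered pairs the differences in share and ratio had an exact p of 0.25, the smallest that 3 pairs allow. At this depth COMP, with 18 fragments in all, limits what can be said of its change.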
